A study of Mus musculus with 26 samples.

Results

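The regions described here are peaks of open chromatin that lay deep inside very long genes of mouse pluripotent cells. A very long gene was an autosomal protein-coding gene whose span from end to end was at least 500 kb, and a peak was placed inside it where the whole peak lay in the gene and more than 10 kb from both its ends. Among the deposited peaks the members were chosen by position, and the height of a peak did not enter the choice. Of 20665 autosomal protein-coding genes, 216 were that long. Peaks of the 18 lists of the study's first set were merged to 65031 autosomal union regions, of which 2160 were inside these genes. By comparison, 7993 union regions lay the same way inside genes of 100 to 500 kb.

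The assay was ATAC-seq, which marks accessible DNA by letting a transposase insert sequencing adapters into it, on 50000 cells for each library. The libraries were of 3 cell types. ES, the embryonic stem cells, were 1 line at passage 16 in 2iL medium. FS, the formative stem cells, were 2 lines in A3XR medium, FS1 at passage 21 and FS2 at passage 29. EpiSC, the epiblast stem cells, were 3 lines, EpiSC_AF at passage 22 in AF medium and EpiSC_AFX1 at passage 14 and EpiSC_AFX2 at passage 16 in AFX medium. Each line gave 3 libraries, and the labels name no genetic change in any of them. Nothing in the labels says that the 3 libraries of a line were grown apart, so each p-value measures the spread between libraries, which may be technical, and ES stands on 1 line. The second set of the study, with 8 libraries from Rd2 cells, is used once, near the end.

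Many very long genes act in the nervous system. They encode synaptic adhesion molecules, receptors and channels among other proteins, and nearly all of their span is intron, with a few short exons spread over it. Their interiors can hold enhancers and alternative promoters, and several of them, such as Fhit and Macrod2, coincide with common fragile sites, which are stretches that break under replication stress. Naive ES cells, formative cells and primed EpiSCs are successive states of the epiblast lineage, and none of them is a neural cell.

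The lists differed in length, from 8044 peaks in the library ES_2 to 31263 in FS1_3, and the depth behind them is unknown because the lists hold no read counts. Content was therefore compared mainly in the 8044 peaks of each list with the highest −log10 p, called equal list length below. This kept 73.4% to 100% of each ES list, 25.7% to 68.2% of each FS list and 27.2% to 51.9% of each EpiSC list, so the ES lists were read down to weaker peaks of their own ranking. As a check of the labels, a peak within 1 kb of an end of Zfp42, a naive marker, was in 3 of 3 ES, 0 of 6 FS and 0 of 9 EpiSC lists at equal length. Tcf15, a formative marker, had one in 0 ES, 3 FS and 9 EpiSC lists. Of the other formative and primed markers, Pou3f1 had one in 1 ES, 5 FS and 9 EpiSC lists, Fgf5 in 0, 1 and 3, and Otx2 in none. Other naive markers went against the label or gave no contrast at equal length. Tfcp2l1 had a peak in 0 ES, 4 FS and 7 EpiSC lists, Klf4 in 2, 2 and 6, and Esrrb in none, while Tbx3 had one in 3, 0 and 0. At equal length no list held a peak at an end of Gata6, Sox17, Pax6 or Col1a1, which mark endoderm, neural cells and fibroblasts, and no ES list as deposited held one. In the lists as deposited Gata6 had one in 2 FS and 8 EpiSC lists, Col1a1 in 4 and 7, Pax6 in 1 and 3, and Sox17 in 0 and 1, and their part in the results was not tested.

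Some very long genes have a second start far inside their span, and these starts are the places where sequence can be set beside the peaks. RefSeq promoters of the GRCm38.p6 assembly, each 250 bases before to 50 bases after a start, matched 169 of the 216 genes with 271 starts. Of these starts, 112 lay inside 69 genes by the same 10 kb margin. The 6 that overlapped a peak in at least 11 of the 18 lists at equal length are printed, 5′ to 3′ on the gene's strand, because the peaks that recur inside these genes and differ between the cell types are in part at these starts. Capitals mark CG dinucleotides.
Nrxn3, chr12:89812233-89812532, plus strand: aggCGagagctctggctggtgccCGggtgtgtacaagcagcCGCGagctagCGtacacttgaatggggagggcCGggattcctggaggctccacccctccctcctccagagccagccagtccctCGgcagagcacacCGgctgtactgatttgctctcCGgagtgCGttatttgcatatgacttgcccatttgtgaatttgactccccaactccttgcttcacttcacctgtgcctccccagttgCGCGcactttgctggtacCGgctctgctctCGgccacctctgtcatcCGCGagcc
Nav2, chr7:49245939-49246238, plus strand: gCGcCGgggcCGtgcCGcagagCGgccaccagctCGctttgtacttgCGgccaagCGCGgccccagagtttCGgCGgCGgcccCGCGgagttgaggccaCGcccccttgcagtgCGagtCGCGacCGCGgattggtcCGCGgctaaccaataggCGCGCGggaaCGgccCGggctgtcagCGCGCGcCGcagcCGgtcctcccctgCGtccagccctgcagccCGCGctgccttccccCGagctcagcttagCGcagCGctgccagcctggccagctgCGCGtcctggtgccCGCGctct
Esrrg, chr1:187997577-187997876, plus strand: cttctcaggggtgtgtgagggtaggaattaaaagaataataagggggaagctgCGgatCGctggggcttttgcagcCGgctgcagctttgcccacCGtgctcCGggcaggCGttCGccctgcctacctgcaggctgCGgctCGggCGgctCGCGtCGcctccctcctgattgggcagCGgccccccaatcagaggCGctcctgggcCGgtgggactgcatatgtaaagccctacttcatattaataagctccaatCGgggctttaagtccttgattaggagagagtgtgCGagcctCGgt
Magi1, chr6:93913641-93913940, minus strand: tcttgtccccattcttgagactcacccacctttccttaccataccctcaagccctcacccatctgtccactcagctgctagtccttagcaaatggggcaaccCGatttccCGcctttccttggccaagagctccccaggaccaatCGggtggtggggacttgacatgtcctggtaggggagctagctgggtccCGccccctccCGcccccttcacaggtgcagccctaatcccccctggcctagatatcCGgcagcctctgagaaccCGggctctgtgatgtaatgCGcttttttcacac
Cdh18, chr15:23036213-23036512, plus strand: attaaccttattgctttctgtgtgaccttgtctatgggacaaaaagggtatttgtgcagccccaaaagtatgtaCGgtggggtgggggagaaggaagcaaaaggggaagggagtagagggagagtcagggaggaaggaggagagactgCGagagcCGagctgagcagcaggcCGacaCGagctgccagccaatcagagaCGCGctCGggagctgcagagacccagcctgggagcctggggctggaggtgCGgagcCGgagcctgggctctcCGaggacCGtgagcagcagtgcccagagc
Lsamp, chr16:41532576-41532875, plus strand: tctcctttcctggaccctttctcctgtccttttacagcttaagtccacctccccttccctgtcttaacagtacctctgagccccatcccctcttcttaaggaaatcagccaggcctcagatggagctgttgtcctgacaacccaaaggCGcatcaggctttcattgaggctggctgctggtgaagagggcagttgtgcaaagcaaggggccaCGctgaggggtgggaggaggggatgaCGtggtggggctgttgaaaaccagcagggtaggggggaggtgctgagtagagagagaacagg

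The 6 starts differed in base content as well as in the cells that had a peak there. Nav2, a neuron navigator that binds microtubules, had the most CG dinucleotides, 42 in 300 bases with 74.7% G or C. Esrrg, an orphan nuclear receptor, had 19, and Nrxn3, a presynaptic neurexin, had 16. Cdh18, a cadherin, had 12 and Magi1, a scaffold protein of cell junctions, had 8. Lsamp, an adhesion protein of the limbic system, had 3. The start of Nrxn3 overlapped a peak in all 18 lists at equal length, and it was the single internal start that did. The start of Nav2 did so in 2 of 3 ES, 6 of 6 FS and 8 of 9 EpiSC lists. The starts of Esrrg, Magi1, Cdh18 and Lsamp overlapped no ES peak at equal length or in the lists as deposited. The printed starts were chosen by their number of lists, and ES has just 3 of the 18. A start with peaks in ES alone could therefore not be among them, while one without an ES peak could. How many of the printed starts lack ES peaks is thus shaped by this choice and is not read as a difference between the types.

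Over all 112 internal starts, ES lists had fewer peaks than the others at equal length. The count was 4, 4 and 3 in the ES libraries. It ran from 6 to 10 with a median of 7.5 in FS and from 8 to 13 with a median of 10 in EpiSC, so the ES counts lay below all the rest. As a share of the 112 starts this was 2.68% to 3.57% in ES, 5.36% to 8.93% in FS and 7.14% to 11.6% in EpiSC. The 159 starts of the same genes near an end showed no such gap, with a peak at 20.6% ± 2.54 of them in ES, 17.6% ± 3.16 in FS and 19.6% ± 1.398 in EpiSC (SD, n = 3, 6 and 9). Of all 31396 autosomal promoters in the table, 14.2% ± 0.214 overlapped a peak in ES, 16.8% ± 1.30 in FS and 17.96% ± 0.268 in EpiSC. There too the ES libraries, at 13.98% to 14.41%, lay below all the others, of which the lowest had 15.3%. A lower ES share was therefore not particular to internal starts. At any list length 48 internal starts had a peak in at least 1 library and 64 had none. The motif GGGCGG, the core of a GC box, was searched on both strands of each promoter. It stood in 35.7% of all 32851 promoters of this length, in 24.1% of the 112 internal starts and in 12.5% of the 64 without a peak, and among the sequences printed above it stood in those of Esrrg and Magi1. TATAAA, searched in the same way, stood in 13.6% of all promoters, in 8.93% of the internal starts and in none of the 6 printed.

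**Figure D1:**
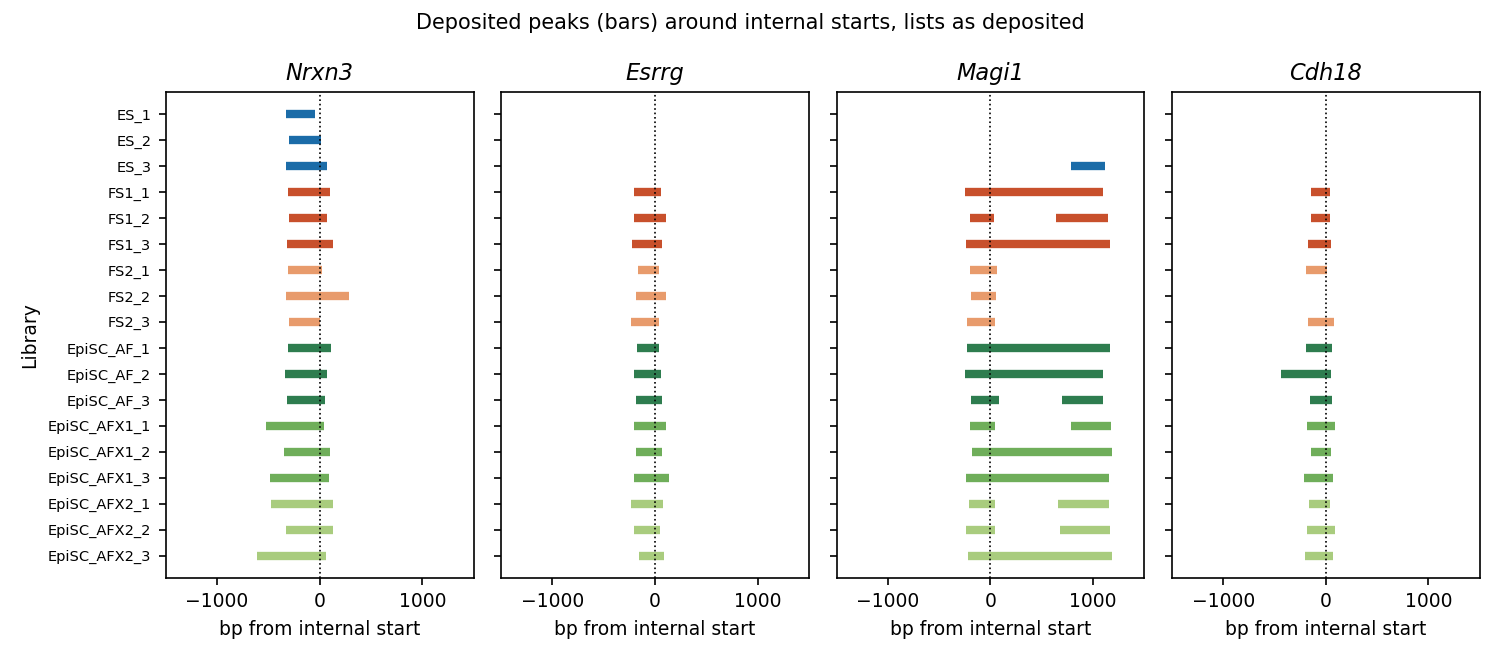
Deposited peaks around the internal starts of Nrxn3, Esrrg, Magi1 and Cdh18 in the lists as deposited. Each row is a library, each bar is a peak, colours mark the lines, and the horizontal axis is the distance in bp from the start, with positive values in the direction of transcription. ES bars lie at the Nrxn3 start, with that of ES_1 ending 48 bp before it, and are missing at the Esrrg and Cdh18 starts, and the single ES bar of Magi1, in ES_3, begins 789 bp past the start.

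The plot of peaks around 4 internal starts shows where the peaks ended. At Esrrg the peak was in each of the 15 FS and EpiSC lists, began between 236 and 159 bp before the start and was 205 to 339 bp wide. At Cdh18 it was in 14 lists, missing from FS2_2 and from the 3 ES lists, and was 187 to 484 bp wide. At Magi1 some lists held 1 wide peak over the start and the next 1.2 kb, others held 2 peaks in that stretch, and the 3 FS2 lists held just the peak over the start. A second listed Magi1 start lies in it and overlapped a peak in 10 of the 18 lists at equal length.

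ES lists held more peaks inside very long genes than FS or EpiSC lists of the same length. At equal length the 3 ES libraries had 169, 161 and 179 such peaks. FS1 had 104, 102 and 91, and FS2 had 84, 87 and 90. EpiSC_AF had 97, 101 and 99, EpiSC_AFX1 had 88, 78 and 84, and EpiSC_AFX2 had 113, 149 and 119. Every ES library was above every other library, and EpiSC_AFX2 was the highest of the rest.

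As a share of autosomal peaks this was 2.18% ± 0.120 in ES, 1.18% ± 0.107 in FS and 1.31% ± 0.278 in EpiSC (SD, n = 3, 6 and 9). The excess of ES over FS was 0.9999 percentage points (two-sided exact permutation test over libraries, p = 0.0119, adjusted p = 0.0179 over 9 tests by Benjamini-Hochberg). Over EpiSC it was 0.865 (adjusted p = 0.0136, exact permutation p = 0.00455). Both p-values are the smallest that 84 and 220 assignments of the libraries allow. FS minus EpiSC was −0.135 and was not called (adjusted p = 0.337, exact permutation p = 0.300). Within the FS type, FS1 had 1.26% ± 0.0888 and FS2 1.098% ± 0.0378. Within EpiSC the means were 1.26% ± 0.0265 in EpiSC_AF, 1.06% ± 0.0646 in EpiSC_AFX1 and 1.62% ± 0.249 in EpiSC_AFX2 (SD, n = 3 each).

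**Figure D2:**
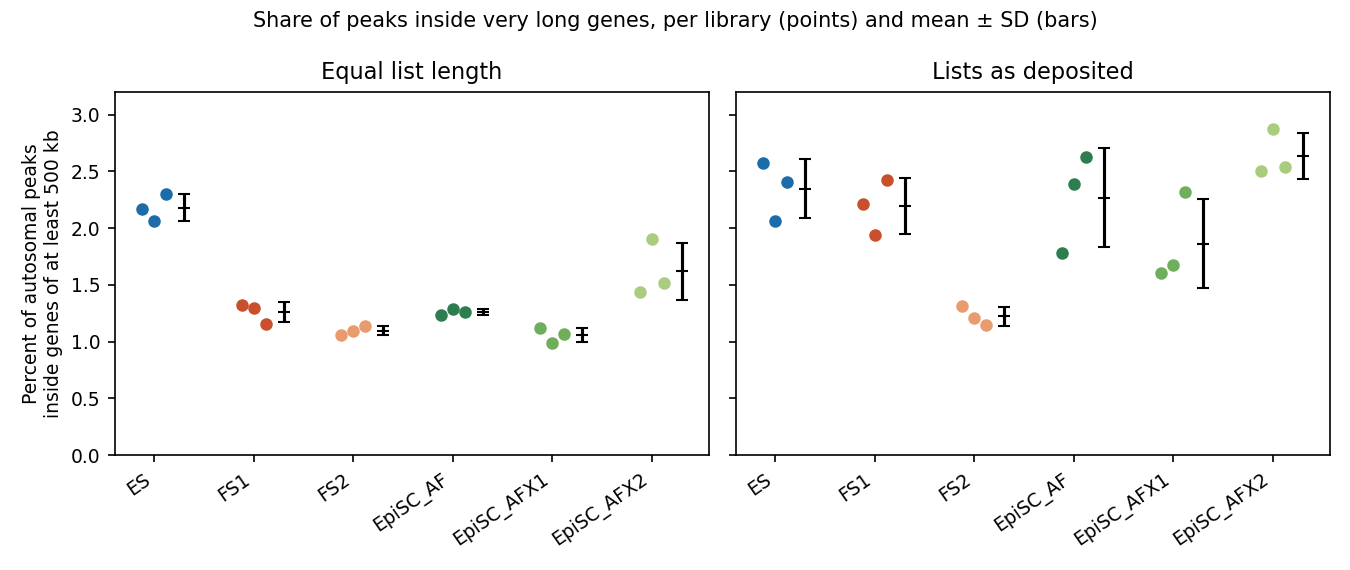
Percent of autosomal peaks inside genes of at least 500 kb, for each library (points) and as mean and SD per line (black bars, n = 3), at equal list length on the left and in the lists as deposited on the right. At equal length the ES libraries lie between 2.063% and 2.302%, above all others, and in the lists as deposited they overlap FS1, EpiSC_AF, EpiSC_AFX1 and EpiSC_AFX2.

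The share of gene-interior peaks was compared as well, since the types also differed in how many peaks lay at gene ends. Here the denominator was the peaks that lay the same way inside any protein-coding autosomal gene. Very long genes held 16.7% ± 0.827 of them in ES, 9.38% ± 1.18 in FS and 11.1% ± 1.97 in EpiSC (SD, n = 3, 6 and 9). ES was higher than FS by 7.29 points (adjusted p = 0.0179, exact permutation p = 0.0119) and than EpiSC by 5.59 (adjusted p = 0.0136, exact permutation p = 0.00455). FS minus EpiSC was −1.71 and was not called (adjusted p = 0.0971, exact permutation p = 0.0755), though without the library EpiSC_AFX1_2 it was −2.04 and did (exact permutation, adjusted p = 0.0385). In the lists as deposited each ES library was still above each FS and each EpiSC library in this share, but the adjusted p was 0.0575 for both differences in the exact permutation test.

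The peaks of ES were also spread over more of the genes. At equal length 120, 111 and 120 very long genes held a peak in the ES libraries, against a median of 67.5 and a range of 63 to 72 in FS and a median of 63 and a range of 57 to 93 in EpiSC. The means differed by 49.2 genes between ES and FS (exact permutation p = 0.0119, adjusted p = 0.0179) and by 47.1 between ES and EpiSC (exact permutation p = 0.00455, adjusted p = 0.0136). FS minus EpiSC was −2.06 genes (exact permutation p = 0.719, adjusted p = 0.719). In the lists as deposited, where the other lists are longer, ES minus FS was −0.833 genes and ES minus EpiSC −30.8, and neither passed. When each list was limited to a −log10 q of 5 or more, without a cut to equal length, the order of the gene numbers was turned. ES minus FS was then −26 genes (exact permutation, adjusted p = 0.383) and ES minus EpiSC −47.7 (exact permutation, adjusted p = 0.0327). The shares were not turned by this limit. ES stayed higher in the share of autosomal peaks, by 1.204 points over FS and 1.197 over EpiSC. In the share of gene-interior peaks it was higher by 6.606 and 5.708 points (exact permutation, adjusted p = 0.0268 for each of these differences).

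The ratio of ES to the other types was higher in each longer class of gene span. Peaks inside genes of 20 to 100 kb were a smaller share in ES than in FS, with a ratio of 0.822 (exact permutation, adjusted p = 0.0166 over 18 tests). The ratio of ES to FS was 1.01 for genes of 100 to 200 kb (exact permutation, adjusted p = 0.643), 1.098 for 200 to 500 kb (adjusted p = 0.0938) and 1.85 for at least 500 kb (adjusted p = 0.0166). Against EpiSC the ratios in the same order were 0.898, 1.11, 1.19 and 1.66, all with an adjusted p of at most 0.0273 in the exact permutation test. With the lists as deposited no class passed this test, and the ES to EpiSC ratios were 0.753, 0.780, 0.851 and 1.041. Those to FS were 0.759, 0.812, 0.909 and 1.37, so ES was below both types in genes of 100 to 500 kb. In peaks per Mb of gene interior, very long genes held 0.965 ± 0.0513 in ES, 0.529 ± 0.0463 in FS and 0.586 ± 0.123 in EpiSC. All of these densities were below those of shorter genes in the same lists.

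**Figure D3:**
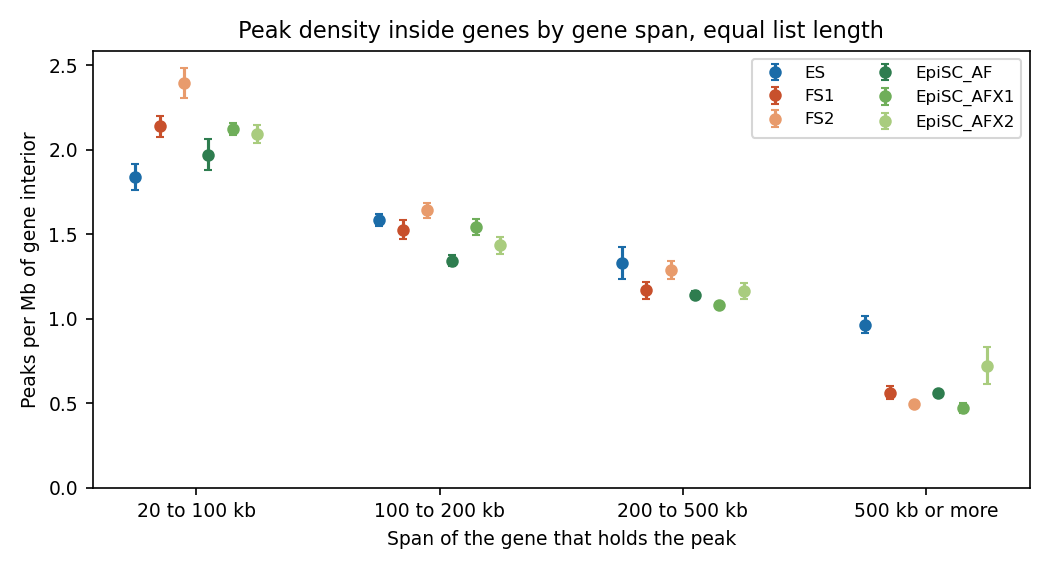
Peaks per Mb of gene interior at equal list length, by the span of the gene that holds the peak (4 classes), as mean and SD of the 3 libraries of each line. In genes of 20 to 100 kb the ES point is the lowest, and in genes of at least 500 kb it is the highest, at 0.965 against 0.474 to 0.722 in the other lines.

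The higher ES share was not confined to very long genes. Peaks that lay neither inside a gene nor within 10 kb of an end of one made up 22.3% ± 0.865 of autosomal peaks in ES, 12.9% ± 1.32 in FS and 11.5% ± 0.628 in EpiSC, which is 1.73 times the FS share and 1.93 times the EpiSC share (exact permutation, adjusted p = 0.0166 and 0.0164). Peaks within 10 kb of a gene end were 64.7% ± 0.933 in ES, 74.5% ± 1.82 in FS and 76.7% ± 0.971 in EpiSC. Neither difference held in the lists as deposited. There the ratios for peaks in neither place were 1.19 and 1.14 (exact permutation, adjusted p = 0.476 and 0.45), and the gene-end shares were 62.86% in ES, 64.7% in FS and 62.86% in EpiSC. With all peaks away from gene ends as the denominator, very long genes held 6.16% ± 0.194 in ES, 4.66% ± 0.709 in FS and 5.60% ± 0.960 in EpiSC. On that scale ES exceeded FS by 1.499 percentage points (exact permutation, adjusted p = 0.0429), and the difference from EpiSC of 0.559 did not pass (adjusted p = 0.389). ES peaks inside very long genes recurred less within their line at equal length. A mean of 31.1% ± 1.68 of them overlapped a peak in both other ES libraries, against 43.7% to 57.1% in the other lines, and the same share over all peaks was 44.6% in ES and 47.8% to 69.0% in the others. The part of peak strength in the higher ES share was not tested.

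All 216 genes held at least 1 union region in the lists as deposited, with a median of 9 and at most 39. At equal length 188 genes held a peak in at least 1 list. Density ran from 1.196 to 49.86 regions per Mb of interior, and 51.9% of the regions lay nearer to an end of their gene than to its midpoint, so they were spread along it. Camta1, a calmodulin-binding transcription activator, held the most regions with 39. Pde4d, which breaks down cyclic AMP, held 38, and Auts2, a partner of Polycomb complexes in neurons, held 37. Dlgap1, a scaffold of the postsynaptic density, held 34. Among the sparsest, Erc2, Grik2, Hpse2, Skint5 and Cpq held 1 region each. Gm37013, Gm38666 and Gm38667 are nested models over the clustered protocadherin genes and share the same 27 regions, so they count as 1 place. Iqschfp and Schip1 overlap in the same way.

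Counts in the genes with the most regions went different ways. Camta1 held 2, 1 and 1 peaks in the ES libraries at equal length, 2 to 5 in FS with a median of 3.5, and 2 to 5 in EpiSC with a median of 4. The ES and FS counts of Camta1 thus met at 2, and in the lists as deposited ES had 2, 1 and 1 against 5 to 15 in FS. Auts2 held 2, 0 and 2 in ES, 1 to 3 in FS and 2 to 5 in EpiSC. Pde4d held 2 in each ES library, 1 to 5 in FS and 2 to 4 in EpiSC. Macrod2, a hydrolase of ADP-ribose, held 2, 4 and 4 in ES and 1 or 2 in each FS and EpiSC library. Sdk1, an adhesion protein of retinal synapses, held 3, 1 and 1 in ES, 0 in each FS library and 0 to 2 in EpiSC. Dlgap1 held 4, 1 and 1 in ES and 0 to 2 in FS, with 0 or 1 in each EpiSC library. Ptprn2, a phosphatase-like protein of secretory vesicles, and the protocadherin models overlapped in all types, at 1 to 6 and 0 to 3 peaks. Cdh13, or T-cadherin, held 25 regions and at most 1 peak in any list at equal length. Cntnap2, a neurexin-related protein of the axon and among the 5 longest genes at 2241 kb, held 0, 3 and 3 in ES, 0 or 1 in FS and 0 in each EpiSC library. For Cntnap2 the library ES_1 lies with the other types.

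A gene was counted as separated where every library of one type had more peaks in it than every library of the other. Of the 180 very long genes with a peak in ES or FS at equal length, 21 were higher in ES and 4 higher in FS. Over all 2294 genes with an interior peak in these lists, 3.66% were separated with ES higher and 2.7% with FS higher, against 11.7% and 2.22% of the very long genes. Of 181 very long genes with a peak in ES or EpiSC, 20 were higher in ES and 1 higher in EpiSC, where the shares over all 2208 genes were 4.26% and 2.54%. Limited to a −log10 q of 5 or more, the lists gave 0 higher in ES and 13 higher in EpiSC. No share over all genes was taken at that limit, so these counts are not read as particular to very long genes. Between FS and EpiSC no very long gene of 149 was separated in either direction, and 0.0488% of all 2050 genes were so in each. Gene by gene, the exact permutation test with Benjamini-Hochberg adjustment called 0 genes in each comparison over all genes. With 84 and 220 assignments, its smallest p was 0.0119 for ES against FS and 0.00455 for ES against EpiSC. Such values can hardly pass an adjustment over this many genes, so the 0 is not read as a lack of differences. Without adjustment, 37, 57 and 11 very long genes had an exact permutation p under 0.05 for ES against FS, ES against EpiSC and FS against EpiSC, ES being the higher in 31 and 48 of the first and second. These were 20.6%, 31.5% and 7.38% of the very long genes tested, against 10.2%, 20.2% and 6.59% of all genes, so FS against EpiSC was near the background. Over the 180 and 181 very long genes tested, the median difference was 0.417 peaks for ES minus FS and 0.333 for ES minus EpiSC, and it was 0 over all genes in both.

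**Figure D4:**
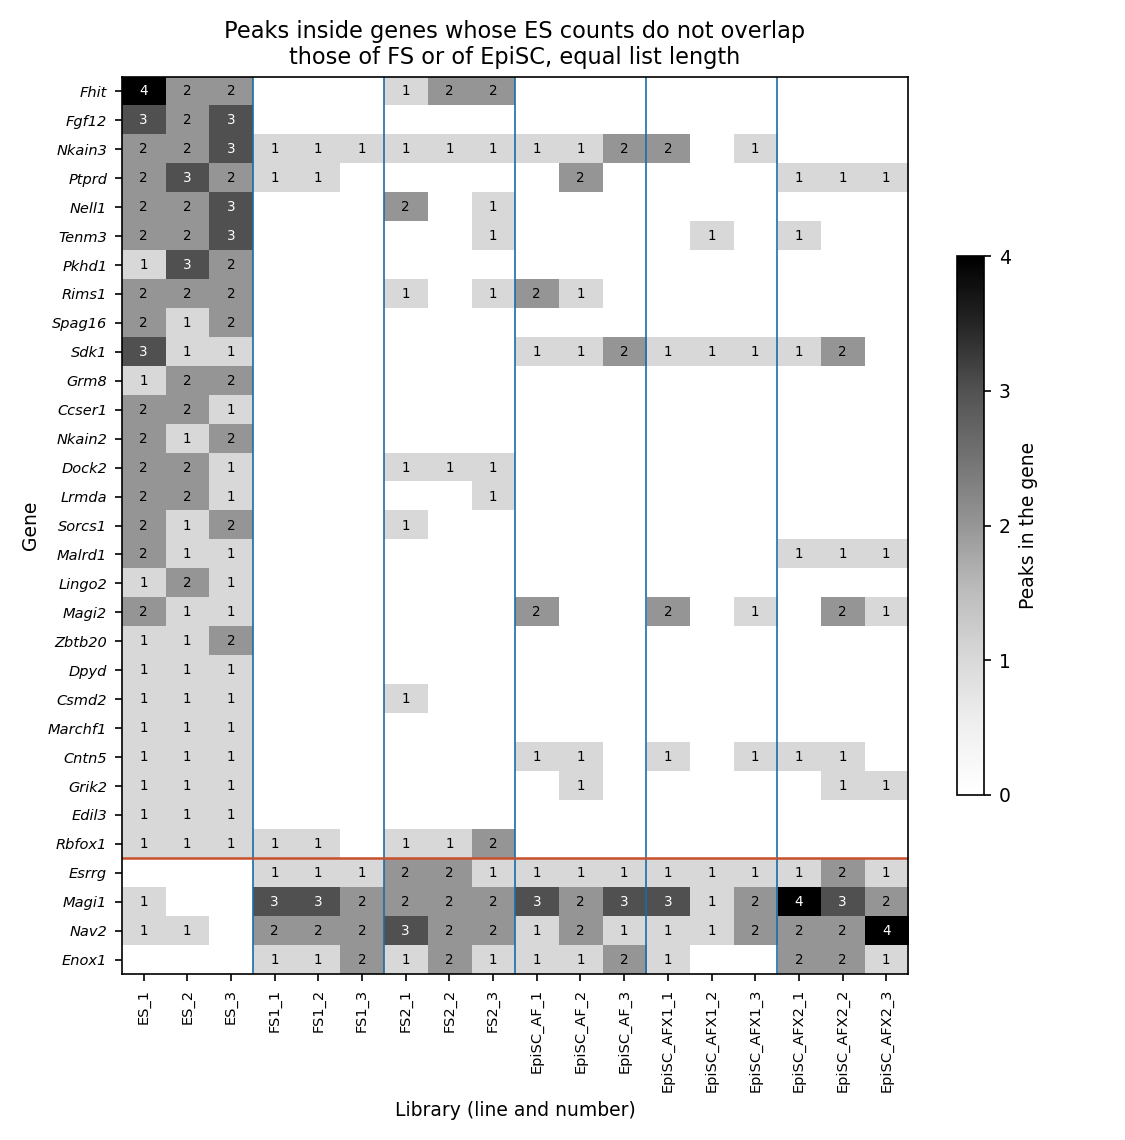
Number of peaks inside 31 very long genes separated between ES and FS or between ES and EpiSC at equal list length. Rows are genes, columns are the 18 libraries in blocks of 3 per line, shades and numbers give the count and empty cells are 0. The 27 genes above the red line were higher in ES in at least 1 of the comparisons and the 4 below it were higher in FS or EpiSC.

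The plot of separated genes shows that counts were small, with 1 to 4 peaks per ES library in the genes above the line and 0 or 1 in those below it. Since the comparisons share the ES libraries, the 13 genes separated in both are given as a count only, 61.9% of the 21 and 65% of the 20. Fgf12 (chr16:28157783-28753243), an intracellular relative of the fibroblast growth factors that binds sodium channels, held 3, 2 and 3 peaks in ES and 0 in all 15 other libraries. Pkhd1 (chr1:20057779-20618082), which encodes the ciliary protein fibrocystin, held 1, 3 and 2 in ES and 0 in the others. Ccser1 (chr6:61179960-62382863), which spans a fragile site, held 2, 2 and 1 in ES and 0 in the others. At full length the ES lists held 1, 3 and 2 peaks in Pkhd1, and just FS1_3 and EpiSC_AFX2_1 of the others held 1 each. Fgf12, by contrast, had 0 to 5 peaks in the other lists as deposited, 2, 2 and 4 of them in FS1.

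Other separated genes had peaks in some libraries of the other types. Tenm3, a teneurin that guides neuronal wiring, held 2, 2 and 3 peaks in ES, 1 in each of 3 other libraries and 0 in the remaining 12. Ptprd, a receptor phosphatase of synapses and the longest gene of all at 2270.5 kb, held 2, 3 and 2 in ES, 0 or 1 in FS and 0 to 2 in EpiSC. Fhit (chr14:9550092-11162061), a hydrolase of dinucleotides at a fragile site, held 4, 2 and 2 in ES and 0 in each EpiSC library. FS2 shared it with 1, 2 and 2 peaks, and FS1 held 0 in all 3 libraries. Nell1, a secreted protein of bone formation, held 2, 2 and 3 in ES, 0 in EpiSC and FS1, and 2, 0 and 1 in FS2.

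The 4 genes Esrrg, Magi1, Nav2 and Enox1 stood higher in FS than in ES, and Esrrg in EpiSC as well. Esrrg (chr1:187608510-188214885) held 0 peaks in the 3 ES libraries, 1 or 2 in each FS and 1 or 2 in each EpiSC library. Magi1 held 1, 0 and 0 in ES, 2 or 3 in each FS library and 1 to 4 in EpiSC. Nav2 held 1, 1 and 0 in ES and 2 or 3 in FS, and its EpiSC counts of 1 to 4 met those of ES. Enox1, an oxidase of the cell surface, held 0 in ES and 1 or 2 in each FS library. Its EpiSC counts were 0 to 2, with 0 in EpiSC_AFX1_2 and EpiSC_AFX1_3. Of these genes, Esrrg, Magi1 and Nav2, hold the internal starts printed above.

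By function, the higher ES counts were spread over most groups of very long genes. Genes were sorted on 7 lists from background knowledge, which took in 127 of the 216. The 40 synapse and neuronal adhesion genes together held 31 to 44 peaks in the ES libraries, 9 to 18 in FS and 9 to 36 in EpiSC. Of these 40, Ptprd, Magi2, Sdk1, Tenm3 and Cntn5 were separated with ES above FS, and Nav2 with FS above ES. Against EpiSC, Csmd2 and Tenm3 were separated with ES higher. The median gene of the list had 0.667 more peaks in ES than in FS, against 0.333 over all 216 very long genes, those without a peak included, and 0 over all genes tested. These 40 genes were also longer, with a median span of 1021 kb against 734.6 kb over the 216, and the part of span was not tested. The 18 ion channel and receptor genes held 10 to 14 in ES, 2 to 5 in FS and 3 to 8 in EpiSC. The glutamate receptors Grm8 and Grik2 were among those separated there, both higher in ES than in FS. Grid1, another glutamate receptor, held 1, 2 and 4 in ES, 0 or 1 in FS and 0 to 2 in EpiSC, so its groups met at 1. Of the neuronal genes with the most peaks, Lrp1b, an LDL receptor relative, held 3, 2 and 4 in ES and 1 or 2 in each other library. Nrxn3 held 1, 2 and 1 in ES, 1 to 3 in FS and 2 to 5 in EpiSC, and Lsamp held 1, 0 and 1 in ES, 0 to 2 in FS and 0 to 3 in EpiSC.

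The 18 signalling genes held 16 to 20 peaks in ES, 5 to 11 in FS and 5 to 11 in EpiSC, so ES did not overlap either. Fgf12 was separated in both ES comparisons, and Dock2, which activates Rac in blood cells, between ES and EpiSC. The 19 common fragile site genes held 21 to 26 in ES, 8 to 13 in FS and 9 to 22 in EpiSC. Ccser1 was separated in both comparisons, Magi2 against FS and Fhit against EpiSC. Magi2 is also on the synapse list. The 5 genes of the list of RNA-binding and splicing regulators held 6 in each ES library, 2 to 5 in FS and 1 to 4 in EpiSC. One of them, Agbl4, encodes a carboxypeptidase rather than an RNA-binding protein and alone held 2, 3 and 2 of the ES peaks. Rbfox1, a splicing regulator, held 1 in each ES library, 0 to 2 in FS and 0 in each EpiSC library. Khdrbs2, an RNA-binding protein, held 1 in each ES and each FS2 library and 0 in each FS1 library.

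For the synapse and fragile site lists the ES range met that of EpiSC and not that of FS. For 2 further lists ES met both. The 17 transcription and chromatin factor genes held 11 to 16 peaks in ES, 11 to 16 in FS and 14 to 26 in EpiSC. Here Zbtb20, a zinc finger repressor, was separated with ES higher and Esrrg with ES lower, in both comparisons, and the median difference of ES minus FS was 0. Sox5, of the SOX family, held 4, 1 and 2 in ES, 0 to 3 in FS and 1 to 5 in EpiSC. The 22 polarity, junction and cytoskeleton genes held 13 to 16 in ES, 11 to 15 in FS and 6 to 25 in EpiSC, with Magi1 separated with FS higher. The 89 genes on no list held 55 to 74 in ES, 34 to 43 in FS and 30 to 41 in EpiSC. The differences between lists were not tested. Median gene span differed too, from 601.9 kb for the genes on no list to 1448 kb for the fragile site genes.

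Most regions inside very long genes were seen in few libraries. Among deposited lists 1048 of the 2160 regions, or 48.5%, had a peak in a single library, and 20 regions had one in all 18. Over all autosomal regions the corresponding shares were 39.5% in 1 library and 4.08% in 18, against 0.926% in 18 here. Genes of 100 to 500 kb gave 48.2% and 1.40%. Regions seen widely were more often at an annotated start or end. A host's internal start or an end of another gene lay within 1 kb of 4.20% of the regions with 1 library, of 23.0% of those with 12 to 17 and of 20% of those with 18. The last is 4 of 20 regions, and the share over all 2160 was 6.48%. Median width differed too, from 196 bp with 1 library to 601 bp with 12 to 17, and the part of width was not tested. At equal length 584 of the regions had a peak, 289 of them in 1 library and 13 in all 18. Such a start or end was near 6.23% of the 289, 35.7% of those with 12 to 17 libraries and 15.4% of the 13.

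Regions were also sorted by the types that had them. A type was said to hold a region when every one of its lines had a peak there in 2 or more libraries, and to lack it when no library had one. At equal length 20 regions were held by all 3 types and 57 by ES with no peak in FS or EpiSC. FS and EpiSC held 6 with no peak in ES, and 0 regions were held by FS alone or by EpiSC alone, which need more libraries than ES alone. In the same order these were 3.43%, 9.76%, 1.03%, 0% and 0% of the 584 regions, against 11.8%, 5.1%, 2.04%, 0.215% and 0.0621% of all 24157 autosomal regions at equal length. Regions inside genes of 100 to 500 kb gave 4.91% for all types, 6.23% for ES and 1.955% for FS with EpiSC. An annotated start or end was within 1 kb of 7 of the 20 shared regions, of 1 of the 57 ES regions, and of 3 of the 6 FS and EpiSC regions. These 3 were the starts of Esrrg, Magi1 and Cdh18 printed above. In the lists as deposited the counts were 34 for all types, 35 for ES, 38 for FS with EpiSC, 0 for FS and 6 for EpiSC. Over all 65031 regions the shares were 7.66%, 0.884%, 3.97%, 0.0554% and 0.148%, against 1.57%, 1.62%, 1.76%, 0% and 0.278% here.

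By the stricter rule of a peak in every library of one type and in none of the other, 20 regions of 469 were in ES and not FS and 5 in FS and not ES at equal length. That is 4.26% and 1.07%, where 2.11% and 1.75% of all 21224 autosomal regions were so. Of 532 regions, 24 were in ES and not EpiSC and 5 in EpiSC and not ES, or 4.51% and 0.940%, against 2.24% and 1.86% of all 20916. Between FS and EpiSC there were 0 of 348 in both directions, and the shares over all 19121 regions were 0.0889% with FS and 0.0314% with EpiSC. Many of the ES regions had peaks elsewhere that fell below the cut to equal length. In the FS lists as deposited 13 of the 20 had a peak in at least 1 library, and in the EpiSC lists as deposited this was so for 20 of the 24. Of the 24, 2 had a peak in every EpiSC list as deposited, both in Tenm3. The one at chr8:48554974-48556209 had a median percentile of 33.4 in ES and 46.8 in EpiSC. For the one at chr8:48247052-48248199 the medians were 65.2 and 12.3.

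**Figure D5:**
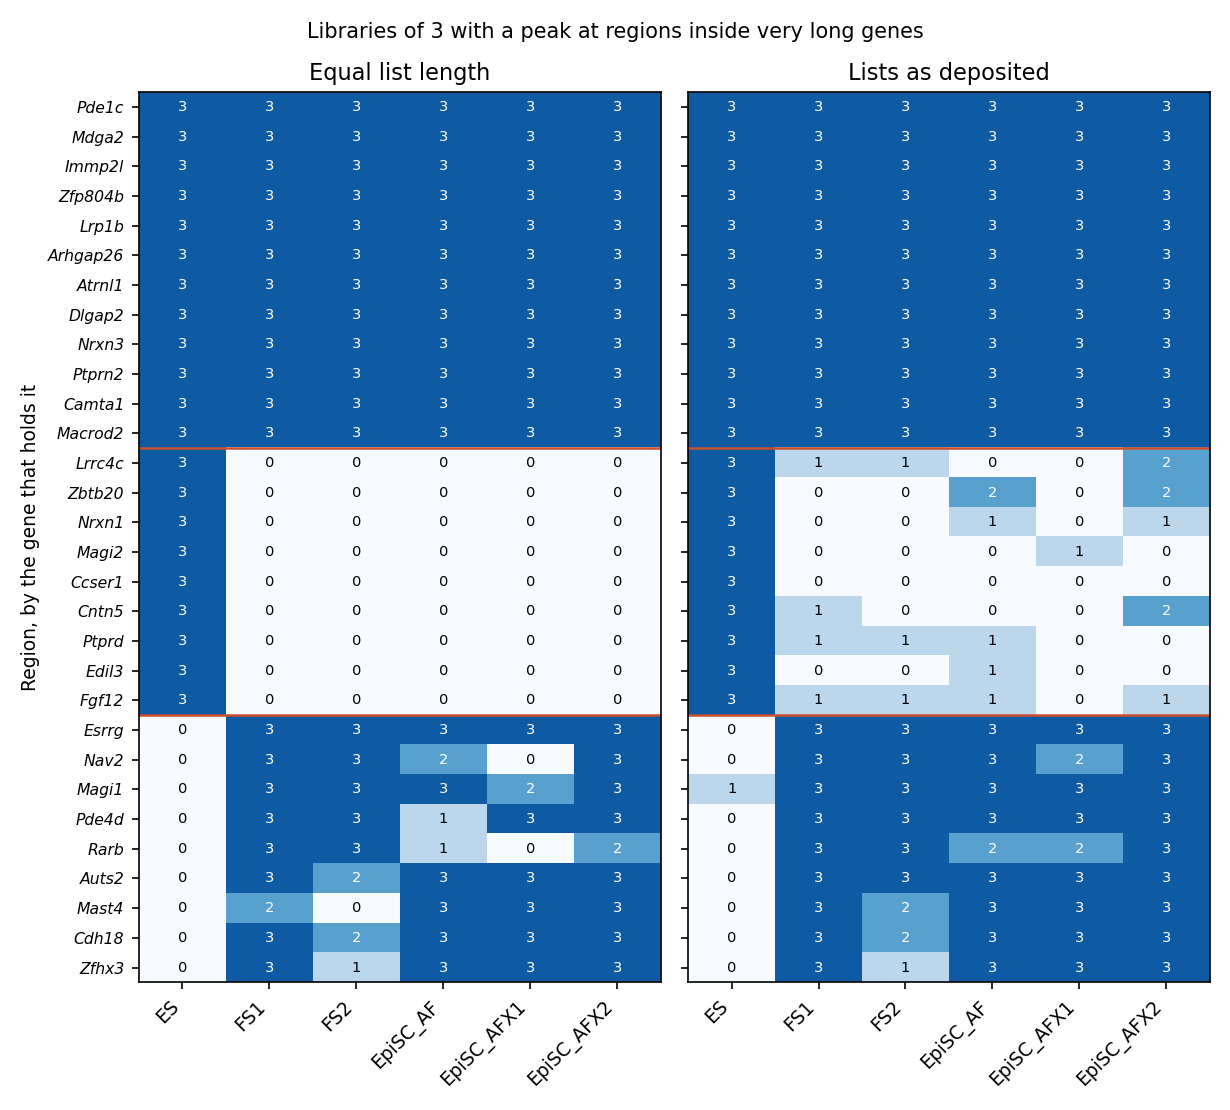
Number of libraries, of 3 in each line, with a peak at 30 regions, named by the gene that holds them, at equal list length (left) and in the lists as deposited (right). From top to bottom the blocks are 12 of the regions with a peak in all 18 lists, 9 of those in every ES and no FS or EpiSC library at equal length, and the 9 in every FS or every EpiSC and no ES library at equal length, and several ES regions gain peaks in other lines in the right panel.

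The region in ES and neither FS nor EpiSC with the highest mean rank was in Lrrc4c, which encodes the netrin-G ligand NGL-1 of synapses, at chr2:97326873-97327604. By −log10 p it stood at the 93.9, 96.4 and 97.2 percentile of the ES lists. At equal length no other list held it, and in the lists as deposited 2 FS and 2 EpiSC lists did, at the 6.04 to 26.0 percentile. The region in Zbtb20 at chr16:42984644-42985701 stood at the 65.1, 91.8 and 94.1 percentile in ES and was in 0 FS and 4 EpiSC lists as deposited, there at most at the 28.6 percentile. Ccser1 held a region at chr6:61952934-61953210 that was in the 3 ES lists and in no other first-set list at either length. Its percentiles in ES were 32.7, 70.6 and 89.7. Regions in Agbl4 and Pkhd1 were likewise in the 3 ES lists alone, with mean percentiles of 27.6 and 27.0 in them. That of Agbl4 stood at 22.7, 26.4 and 33.8. That of Pkhd1 stood at 0.783, 20.7 and 59.5, so 1 of its peaks was among the weakest of its list. Rarb, a retinoic acid receptor, held regions of both kinds. One at chr14:16971146-16971516 was in every ES and no FS list at equal length, and another at chr14:16447611-16447944 in every FS and no ES list.

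Percentiles of the regions in FS or EpiSC and not ES are given as a description, since a place in every equal-length list of a type already asks for a high rank. That of Auts2 at chr5:131515647-131516241 was in no ES list and in all 15 others as deposited, with a median percentile of 93.2 in EpiSC and 81.9 in FS. That of Esrrg at chr1:187997591-187997962 had a median of 90.1 in FS and 85.5 in EpiSC. Pde4d held one at chr13:109926469-109926936, in no ES list and in all 15 others as deposited, with a median of 83.0 in FS and 76.3 in EpiSC. Zfhx3, a large homeobox zinc finger protein, held one in all 9 EpiSC lists and 4 of 6 FS lists. Mast4, a kinase tied to microtubules, held one in all 9 EpiSC lists and, as deposited, 5 of 6 FS lists. As deposited, the FS lists without these peaks were of FS2. At equal length the Mast4 peak was in 2 of 3 FS1 and 0 of 3 FS2 lists, and that of Zfhx3 in 3 and 1. The part of list length in this was not tested.

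The same choice fixes high ranks for the 13 regions in all 18 lists at equal length. The one in Pde1c, a phosphodiesterase, at chr6:56233585-56233820 stood between the 90.9 and 99.7 percentile of every list. The one in Mdga2, an adhesion protein of synapses, stood at the 92.3 percentile or higher. The one in Macrod2 was lowest by mean rank, with medians of 69.1 in ES, 86.3 in FS and 92 in EpiSC. Just 2 of the 13 were near a listed start or end, at the internal start of Nrxn3 and at an end of Flrt3, a gene that lies within Macrod2. The lists of the second set, whose libraries are from Rd2 cells, gave no peak at 8 of the 13, among them those in Pde1c, Mdga2, Immp2l, Zfp804b and Lrp1b. All 6 of the 13 that were narrower than 400 bp were among these 8. The sets came from different cells and their lists differ in length, and the part of either in this was not tested.

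The second set was read for overlap with these regions. Its 8 lists, as deposited, had 471 and 2576 peaks for Rd2_ES, 7469 to 26045 for 4 libraries of Rd2_EpiLC, which are epiblast-like cells made from ES cells by 2 days in AF with KSR and taken from the GFP-low fraction, and 11252 and 10719 for Rd2_AFX. Of the 57 regions of the first set held by ES alone, Rd2_ES overlapped 0 and 3, Rd2_EpiLC 3, 6, 1 and 9, and Rd2_AFX 1 and 1. The 3 of the second Rd2_ES library were 5.26%, where it overlapped 0.694% of all 2160 regions and 3.73% of all autosomal regions. In Rd2_EpiLC and Rd2_AFX the shares were 1.75% to 15.8%, where 10.7% to 31.8% of all autosomal regions and 2.92% to 21.6% of the 2160 were overlapped. The 6 regions held by FS and EpiSC and not ES were overlapped 0 and 0 times by Rd2_ES, 4, 5, 2 and 6 times by Rd2_EpiLC, and 5 and 4 times by Rd2_AFX. The short Rd2_ES lists had 2 and 19 peaks inside very long genes, or 0.429% and 0.745% of their autosomal peaks, below each first-set ES library.

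Taken as deposited, with unequal lengths, the gene counts turned around, and so did those over all genes. The ES lists held 272, 161 and 226 peaks inside very long genes, FS1 453 to 738, FS2 141 to 183, EpiSC_AF 270 to 632, EpiSC_AFX1 277 to 621 and EpiSC_AFX2 623 to 826. Of 212 very long genes, 3 were then separated with ES above FS and 7 with FS above ES. That is 1.42% and 3.30%, where 0.555% and 5.05% of all 3961 genes were so. Against EpiSC 1 of 214 was higher in ES and 27 in EpiSC. That is 0.467% and 12.6%, where 0.367% and 9.15% of all 4360 genes were so. FS above EpiSC held for 0 of 215 and EpiSC above FS for 1, or 0.465%, with 0% and 0.0218% of all 4591 genes. Of 1348 regions, 13 were in ES and not FS and 14 in FS and not ES. That is 0.964% and 1.04%, against 0.494% and 2.98% of all regions. Of 1809 regions, 10 were in ES and not EpiSC and 60 in EpiSC and not ES. That is 0.553% and 3.32%, against 0.336% and 4.98% of all. Between FS and EpiSC, 0 of either kind parted the types, against 0.0162% and 0.0195% of all. The share of autosomal peaks was 2.35% ± 0.260 in ES, 1.71% in FS and 2.26% in EpiSC, and no difference passed the exact permutation test (adjusted p = 0.168 for ES minus FS and 0.839 for ES minus EpiSC).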

How the data were processed

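ATAC-seq of 26 libraries was used, of which the 18 of the first set carry the comparisons and the 8 from Rd2 cells serve for description. The authors deposited a list of broad peaks for each library. Trim Galore, Bowtie, Picard and MACS2 and the build mm10 are named in the submitters' processing notes, with no versions or roles. Control and thresholds are not given in the sources used here. Each peak carries the authors' deposited score, fold enrichment, −log10 p and −log10 q. These rank peaks within a list, and depth is unknown.

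Gene spans and ends came from RefSeq on GRCm38.p6, the same assembly, and promoter sequences from RefSeq too. No exon annotation was used, so regions are placed by gene only. X, Y and mitochondrial peaks were left out. Peaks were merged across the 18 lists, and a region was present in a list where they shared at least 1 bp. A percentile is a peak's rank by −log10 p in its own deposited list. Equal list length was the 8044 peaks with the highest −log10 p. Means were compared by two-sided exact permutation tests over libraries, adjusted by Benjamini-Hochberg over 9 tests, or 18 for span classes, at 0.05. The replicate numbers did not pair the libraries.

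Named genes were those with the most regions, the longest, those separated by the largest difference, and those with the most peaks in each list. Others were named after their values were seen, where they made up a small count. Some genes and their regions enter the counts but are not reported here by name. The members and lists were chosen with earlier results of these data known. Scripts were tested on simulated data and used Python 3.11.15, numpy 2.4.6, pandas 2.3.3 and matplotlib 3.10.9. Alternatives included the lists as deposited, ranking by fold, a −log10 q minimum, other spans and margins, and leaving out libraries or lines.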

Additional observations from a re-analysis of the deposited data

Results flagged for a closer look

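In 18 groups of libraries examined for a value far from the rest, 3 held one. Gene groups entered only where their counts spanned at least 3 peaks. The rule's nominal 5% does not apply to small whole counts picked this way, so 3 of 18 is not set against it. Ptprn2, a phosphatase-like protein of secretory vesicles, held 6 peaks in EpiSC_AFX2_2 at equal list length, where the next highest EpiSC library held 3. Nav2 held 4 in EpiSC_AFX2_3, where the next highest EpiSC library held 2. Sox5 held 0 in FS2_2, where the next lowest FS library held 2.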

How the results depend on the processing

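Values are given in the order share of autosomal peaks, share of gene-interior peaks (percentage points) and number of genes with a peak, unless named. Counts of separated genes or regions are for both directions together. Their shares over all genes or regions were taken at equal list length and in the lists as deposited only. The cause of each change was not tested, except that leaving out libraries or lines also leaves fewer assignments to test.

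In the lists as deposited, ES minus FS was 0.6383, 6.357 and −0.8333, and ES minus EpiSC 0.09166, 3.611 and −30.78. Separated genes and regions then numbered 10 (3 higher in ES, 7 in FS) and 27 (13 and 14) for ES with FS, 28 (1 higher in ES, 27 in EpiSC) and 70 (10 and 60) for ES with EpiSC, and genes 1 for FS with EpiSC. With a −log10 q of at least 5 both shares kept direction and call, at 1.204 and 6.606 for ES minus FS. For ES minus EpiSC they were 1.197 and 5.708. The number of genes gave −26 for ES minus FS and −47.67 for ES minus EpiSC at this limit, and separated genes and regions numbered 2 and 3 for ES with FS. For ES with EpiSC the direction turned, with 13 genes (0 higher in ES, 13 in EpiSC) and 7 regions (1 and 6). A span of at least 400 kb gave FS minus EpiSC as 4.111 genes, and one of at least 750 kb gave 14 separated genes and 15 regions for ES with FS.

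Without line FS1, ES minus FS was 1.081, 8.249 and 50, where the smallest exact p is 0.1, and FS with EpiSC had 4 separated genes and 3 regions. Without line FS2 it was 0.9192, 6.338 and 48.33, with 45 separated genes and 52 regions for ES with FS and 2 and 4 for FS with EpiSC. With EpiSC_AF as the single EpiSC line, ES minus EpiSC was 0.915, 5.596 and 50.67, and FS minus EpiSC 1.5 genes. Without line EpiSC_AFX2, chosen after seeing the data for the 3 measures, FS minus EpiSC was 0.01736 percentage points of autosomal peaks and 4.333 genes, with 1 separated gene. With all peaks away from gene ends as the denominator, also chosen after seeing the data, ES minus EpiSC was 0.5592.

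With the replicate number as a block, ES minus FS was 0.9999, 7.293 and 49.17 with an adjusted exact permutation p of 0.05556, and no call against EpiSC changed. Over 22679 regions and 45 same-numbered pairs the correlation of deviations ran from −0.02026 to 0.01301, and 5 of 18 libraries correlated best with their own number.

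Leaving out 1 library at a time, ES minus FS ranged over 0.9383 to 1.058, 6.871 to 7.697 and 47.67 to 52.17, ES minus EpiSC over 0.803 to 0.9383, 5.164 to 6.056 and 45.5 to 50.11, and FS minus EpiSC over −0.1757 to −0.06159, −2.041 to −1.237 and −3.667 to 0.8333. Separated genes ranged over 25 to 42 and regions 25 to 44 for ES with FS, 21 to 31 and 29 to 48 for ES with EpiSC, and 0 to 1 and 0 to 1 for FS with EpiSC. The highest adjusted exact permutation p was 0.05357 for both ES comparisons. Over all alternatives, 294 values kept direction and call, 35 lost the call, 20 moved, 15 turned direction and 1 gained a call.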
